A study of Homo sapiens with 38 samples.

Results

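NRF2, the transcription factor encoded by NFE2L2, and 9 of its classic antioxidant target genes were followed through nuclear and cytoplasmic RNA of HCT116 cells, a human colorectal carcinoma line. The 10 genes (NFE2L2, GCLC, GCLM, TXNRD1, SRXN1, NQO1, AKR1C1, AKR1B10, HMOX1 and OSGIN1) were taken by name as NRF2 and textbook targets, out of 58425 genes with at least 1 matched transcript. The study set wild-type cells beside 4 lines made by CRISPR editing, namely single AGO1 and single AGO2 knockouts, a double AGO1/2 and a triple AGO1/2/3 knockout, which lack Argonaute (AGO) proteins, the factors that carry microRNAs. RNA-seq was run on the nuclear and the cytoplasmic fraction of each of the 5 genotypes with 3 libraries per group, 30 libraries in all. Each knockout genotype was 1 edited line, and its 3 libraries were successive culture passages: 27, 28 and 29 for wild type, 6, 7 and 8 for AGO1, 8, 9 and 10 for AGO2, 9, 10 and 11 for AGO1/2, and 11, 12 and 14 for AGO1/2/3. All lines were grown in the same medium with serum. Genotype, edited line and passage range cannot be told apart in this design, and p-values measure only the spread between passages of a line.

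NRF2 is held at a low level by KEAP1, an adaptor that presents it to a CUL3 ubiquitin ligase. Oxidants and electrophiles block KEAP1, and NRF2 then enters the nucleus, pairs with a small MAF protein and binds the antioxidant response element. NRF2 is controlled mainly through its protein, so its target transcripts are the usual readout of its activity, while its own transcript is not. The targets supply glutathione (GCLC and GCLM), thioredoxin reduction (TXNRD1 and SRXN1) and the removal of quinones, carbonyls and heme (NQO1, AKR1C1, AKR1B10 and HMOX1), and OSGIN1 is a growth inhibitor induced by oxidative stress.

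The core of the antioxidant response element, TGACNNNGC, was searched on both strands of a window of the hg38 genome for each member, from 1000 bases before to 50 bases after the start site of its canonical GENCODE 44 transcript. It was present for 6 of the 10 members (GCLC, GCLM, TXNRD1, NQO1, AKR1B10 and OSGIN1) and in 34.5% of the windows of 20033 protein-coding genes. The core followed directly by an A was present for 3 members (NQO1, GCLM and GCLC) and in 9.93% of all windows. These 3 matches are shown because they place the motif that names this gene set beside genes whose transcripts are described here. NQO1 carried it on its own strand at position -455 from the start site (chr16:69726994-69727027, minus strand), GCLM on the opposite strand at -35 (chr1:93909444-93909477, plus strand) and GCLC on the opposite strand at -871 (chr6:53545951-53545984, plus strand). All 3 lie upstream of the first exon of the canonical transcript, the GCLC match within the span of longer annotated GCLC transcripts, and the capitals mark the matched letters.
NQO1: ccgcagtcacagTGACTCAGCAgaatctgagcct
GCLM: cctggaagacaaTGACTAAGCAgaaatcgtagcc
GCLC: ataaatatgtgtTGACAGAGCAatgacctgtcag
TXNRD1 held 2 matches to the shorter core, at -99 on its own strand (chr12:104215668-104215700) and at -8 on the opposite strand (chr12:104215759-104215791), the latter reaching the start site. OSGIN1 held 1 on its own strand at -557 (chr16:83952671-83952703), within the span of longer OSGIN1 transcripts. AKR1B10 held 1 at -858, not shown, and no match lay in the windows of NFE2L2, SRXN1, AKR1C1 and HMOX1. The letters of the windows say nothing on whether the factor was bound.
TXNRD1 at -99: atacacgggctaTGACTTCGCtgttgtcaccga
TXNRD1 at -8: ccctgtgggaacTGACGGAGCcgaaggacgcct
OSGIN1: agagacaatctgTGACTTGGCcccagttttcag

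Libraries held 20431557 to 54097984 assigned reads in the nuclear and 39476205 to 79731793 in the cytoplasmic fraction, and 2.23% to 4.01% of reads lay on transcripts without a GENCODE 44 match. AGO1 RNA fell in every line with AGO1 edited (log2 -3.49, -3.19 and -3.29 in the cytoplasm of the AGO1, AGO1/2 and AGO1/2/3 lines). AGO2 RNA fell by 0.67 in the cytoplasm of the AGO2 line but was 0.31 higher in that of the AGO1/2 line, and AGO3 RNA was 0.34 higher in that of the AGO1/2/3 line, so these transcripts do not check those edits. Of 7 epithelial and colon markers, EPCAM, KRT8, KRT18, KRT19, CDH1 and CDX2 were detected in every library and VIL1 stayed at or below 0.0773 TPM (transcript abundance scaled by transcript length and library). PTPRC, CD3E, CDH5 and DCN were at or below 0.0276 TPM everywhere, and COL1A1 was at 0.633 to 6.21 TPM. The nuclear RNA MALAT1 was at 1200 to 3486 TPM in nuclear and 79.9 to 156 TPM in cytoplasmic libraries. NEAT1 was at 43.1 to 179 and 3.56 to 12.5 TPM, and the mitochondrial MT-CO1 at 339 to 527 and 9173 to 18816. The cytoplasmic markers GAPDH and ACTB did not separate that way. GAPDH overlapped, at 1067 to 2773 and 1296 to 2096 TPM, and ACTB was higher in nuclear libraries (41.6 to 245 against 22.2 to 33.2).

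Members differed widely in level, here in TPM so that genes of unequal length can be compared. In wild-type cytoplasm NQO1, a quinone reductase, was the most abundant at 236 ± 6.79 TPM (SD, n = 3), followed by TXNRD1 at 114 ± 18.5, NFE2L2 at 37.1 ± 0.987, SRXN1 at 30.01 ± 4.19, the matched part of GCLC at 16.5 ± 0.854, GCLM at 11.5 ± 1.85, HMOX1 at 7.57 ± 0.450 and OSGIN1 at 3.08 ± 0.347. AKR1B10 at 0.0964 ± 0.0428 and AKR1C1 at 0.0939 ± 0.0514 TPM overlapped and were close to 0. The order NQO1, TXNRD1, NFE2L2 at the top did not overlap in any of the 10 groups. In wild-type nuclei NQO1 was at 164 ± 6.16 TPM and TXNRD1 at 92.1 ± 10.9, and OSGIN1 at 5.22 ± 0.283 overlapped HMOX1 at 4.98 ± 0.507. The plot of the 10 members by library gives the reads scaled by library size (CPM), the unit used below to compare 1 gene between groups.

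**Figure D1:**
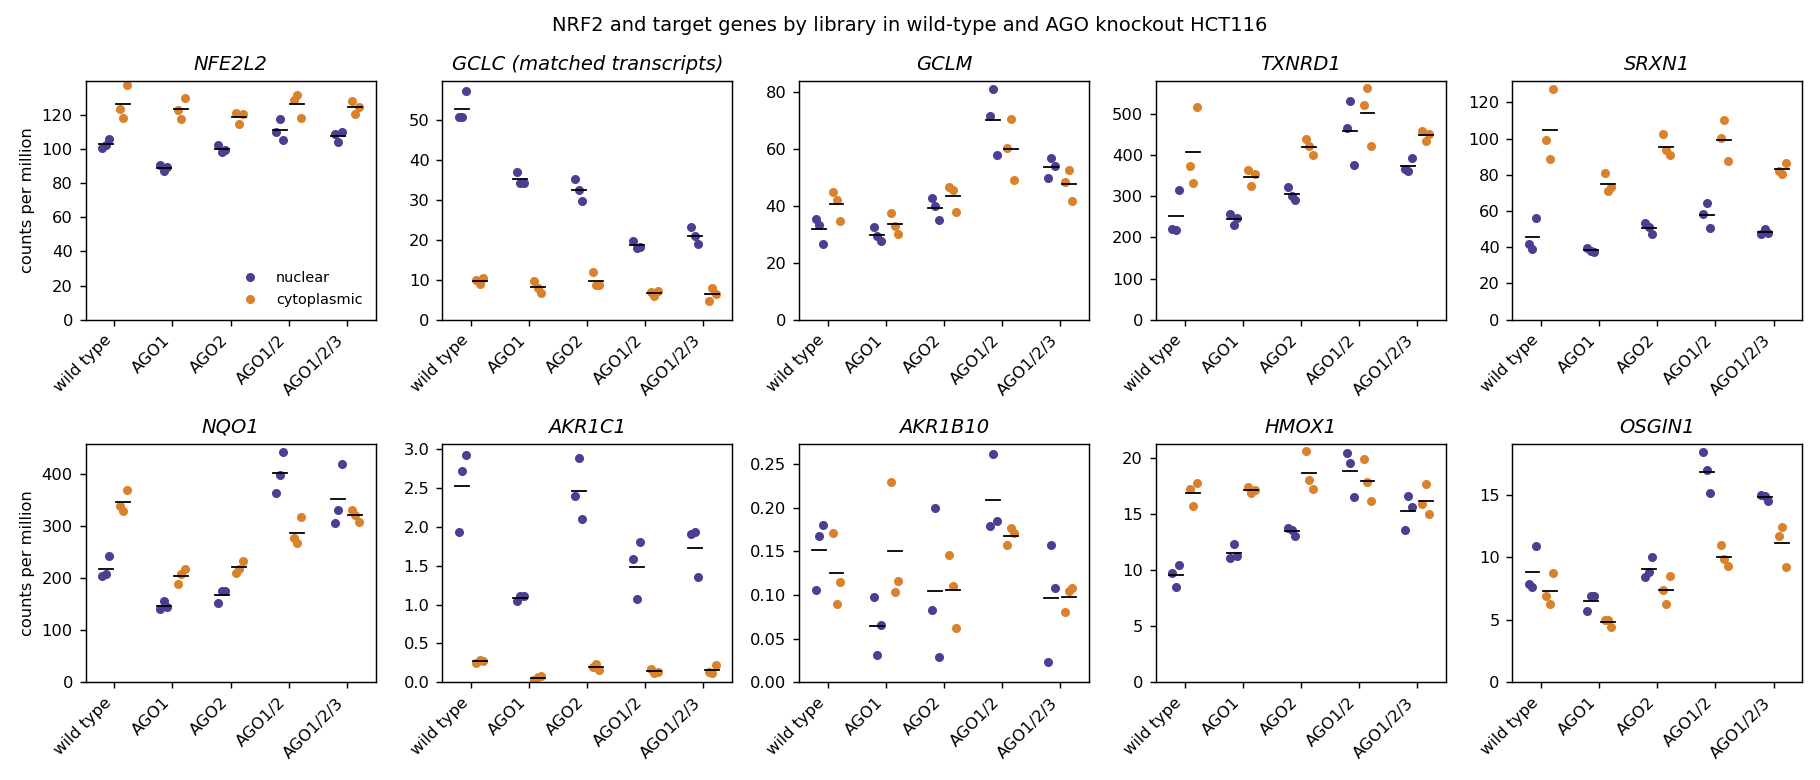
Each panel plots 1 gene in CPM (linear axis from 0), with 1 point per library, a black bar at the mean of 3, and the genotypes along the x axis. Among nuclear libraries NQO1, GCLM, TXNRD1, HMOX1 and OSGIN1 have their highest means in the AGO1/2 and AGO1/2/3 lines. NFE2L2 stays between 87.3 and 118 CPM in nuclear and between 115 and 137 in cytoplasmic libraries, and AKR1C1 and AKR1B10 stay below 3 in both. CPM were scaled separately within each fraction, so heights compare genotypes within a fraction and not the 2 fractions.

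In the AGO1 line several NRF2 target transcripts were lower than in wild type, and in the AGO1/2 line most were higher in the nucleus. A gene counted as called where edgeR's quasi-likelihood test over all genes of a fraction gave an adjusted p no higher than 0.05. In the AGO1 line no member was called higher in either fraction, while 5 of 9 tested members in the nucleus (NFE2L2, GCLC, NQO1, AKR1C1 and OSGIN1) and 4 of 10 in the cytoplasm (SRXN1, NQO1, AKR1C1 and OSGIN1) were called lower. Over all genes, 14.3% were called higher and 15.6% lower in those nuclei, and 4.28% higher and 8.13% lower in that cytoplasm. In the AGO1/2 line 6 of 9 members were called higher in the nucleus (GCLM, TXNRD1, SRXN1, NQO1, HMOX1 and OSGIN1) and 2 lower (GCLC and AKR1C1), against 32.9% and 34.7% of all genes. The median log2 fold change of tested members was 0.87 there, and -0.06 over all genes.

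In AGO1/2/3 nuclei 5 members were called higher (GCLM, TXNRD1, NQO1, HMOX1 and OSGIN1) and 2 lower (GCLC and AKR1C1), against 29.1% and 29.5% of all genes, with a median of 0.57 for members and -0.03 for all genes. In AGO2 nuclei 1 was called higher (HMOX1) and 2 lower (GCLC and NQO1), against 20.2% and 19.9%. In the cytoplasm the AGO2 line had 1 member lower (NQO1) and 0 higher, against 9.0% and 7.07% of all genes. The AGO1/2 cytoplasm had 2 higher (GCLM and OSGIN1) and 3 lower (GCLC, NQO1 and AKR1C1), against 23.9% and 25.4%, and the AGO1/2/3 cytoplasm had 1 higher (OSGIN1) and 2 lower (GCLC and SRXN1), against 18.6% and 20.0%. The 8 comparisons share the wild-type libraries of their fraction, so they are given side by side and not as repeats of each other. AKR1B10 did not pass the filter on low counts in the nucleus.

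**Figure D2:**
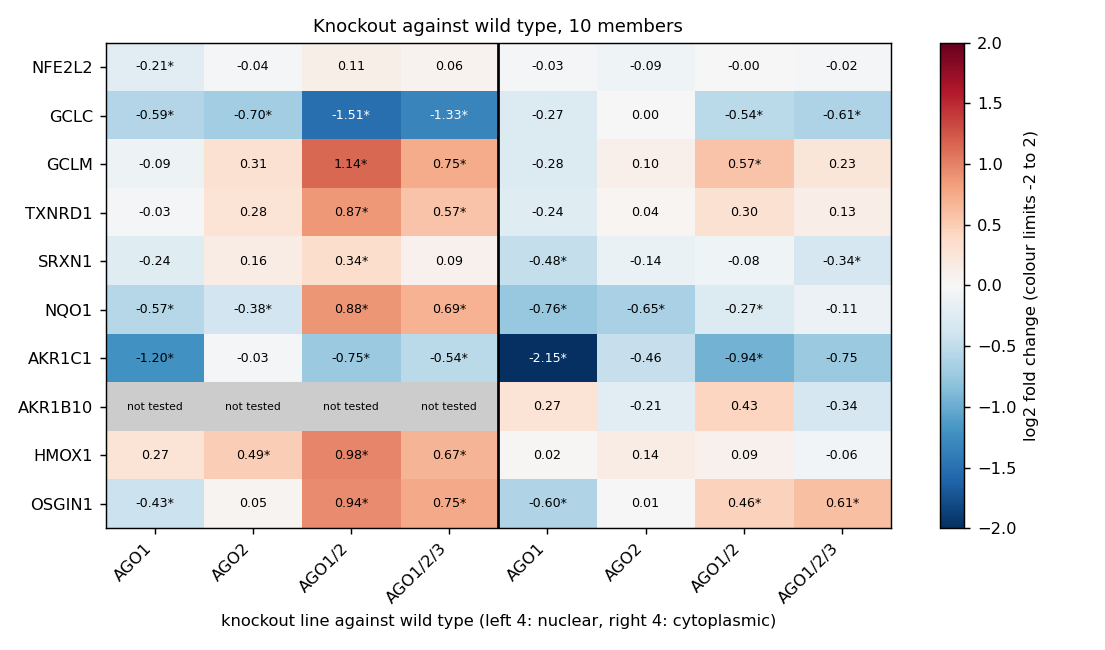
Colour and number give the log2 fold change of each member (rows) in each knockout line against wild type (columns, nuclear left and cytoplasmic right), with an asterisk where edgeR's adjusted p was at most 0.05. The 2 nuclear columns of the AGO1/2 and AGO1/2/3 lines hold 6 and 5 called rises, and the 2 AGO1 columns hold 0.

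In CPM, NFE2L2 itself stayed close to its wild-type level, while on the TPM scale it was lower in most comparisons. Nuclear NFE2L2 was at 100.3, 102 and 106 CPM in wild type (passages 27, 28 and 29) and at 90.8, 87.3 and 89.1 in the AGO1 line, where all 3 libraries lay below all wild-type ones. That difference was the sole call for NFE2L2 among the 8 comparisons (log2 -0.21 ± 0.05 SE, adjusted p = 0.00917), and it was lost without the filter on low counts (-0.16) and with only the 2 groups in the fit (-0.18). Nuclear values in the other lines ran from 98.1 to 118 CPM. In AGO1/2/3 nuclei NFE2L2 was called lower on the TPM scale (-0.29 and -0.30 with pseudocounts of 1 and 0.1). Nuclear TPM was 37.3 to 42.2 in wild type, 26.3 to 31.4 in AGO1, 29.4 to 32.5 in AGO2 and 30.2 to 34.9 in AGO1/2/3. In AGO1/2 nuclei it overlapped wild type, at 34.0 to 40.6 TPM. In the cytoplasm wild type spanned 118 to 137 CPM, and the 12 knockout libraries spanned 115 to 131, within or just under that range. Cytoplasmic TPM was 36.0 to 37.9 in wild type and lower in every knockout library. It was at 29.9 to 34.3 in AGO1, 28.4 to 31.4 in AGO2, 27.2 to 28.5 in AGO1/2 and 29.6 to 31.9 in AGO1/2/3. The log2 median of all genes on that scale also fell, to between -0.36 and -0.070 over the 8 comparisons.

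The glutathione genes encode the catalytic (GCLC) and the modifier (GCLM) subunit of glutamate-cysteine ligase, which makes the first step of glutathione synthesis. Nuclear GCLM was at 35.3, 33.3 and 26.6 CPM in wild type, 71.5, 81.1 and 57.9 in the AGO1/2 line and 49.7, 56.6 and 54.0 in the AGO1/2/3 line. Both lines lay wholly above wild type, with log2 fold changes of 1.14 ± 0.13 (adjusted p = 1.14e-06) and 0.75 ± 0.13 (adjusted p = 0.000107). In the cytoplasm GCLM rose in the AGO1/2 line to 60.4, 70.4 and 49.0 CPM from 44.9, 41.9 and 34.7 (0.57 ± 0.14, adjusted p = 0.0037), a call lost on the TPM scale (0.23 with a pseudocount of 1 and 0.25 with 0.1). In the single-knockout lines GCLM was not called, with 27.5 to 42.8 CPM in nuclei and 30.2 to 46.7 in cytoplasm.

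GCLC could be read only in part. Its 12 matched transcripts fell in the nuclei of all 4 lines, from 50.8, 50.6 and 57.1 CPM in wild type to 36.8, 34.3 and 34.3 in AGO1, 35.1, 32.5 and 29.8 in AGO2, 19.7, 17.9 and 18.1 in AGO1/2 and 23.1, 21.0 and 19.0 in AGO1/2/3. The log2 fold changes were -0.59 ± 0.08, -0.70 ± 0.08, -1.51 ± 0.08 and -1.33 ± 0.08, and no library overlapped wild type. Among these transcripts the protein-coding GCLC-205 and GCLC-208 went from 5.16 ± 0.116 and 5.47 ± 0.430 TPM in wild-type nuclei to 1.48 ± 0.0665 and 1.38 ± 0.174 in AGO1/2 nuclei, while the 542-base GCLC-210, which has no defined coding sequence, was at 8.94 ± 0.580 and 10.4 ± 1.89. In the cytoplasm GCLC-210 made up 78.9% of the matched TPM of wild type, and the sum was called lower in the AGO1/2 (-0.54 ± 0.18) and AGO1/2/3 (-0.61 ± 0.18) lines. Both cytoplasmic calls were lost with protein-coding transcripts only (-0.01 and -0.08). The first was also lost without AGO1/2 passage 10 (-0.45), wild-type passage 27 (-0.53) or wild-type passage 29 (-0.48), and the second without AGO1/2/3 passage 11 (-0.43). A transcript of 3813 bases, listed among the rows of GCLC transcripts but absent from GENCODE 44 (ENST00000229416), was assigned to no gene and held 2804 ± 381 reads in wild-type cytoplasm, where matched GCLC transcripts held 418. Directions for GCLC therefore describe the matched transcripts and not the gene. Unmatched transcripts also lay among the rows of TXNRD1 (5), NFE2L2 (2) and OSGIN1 (1), outside the gene sums. Of the TXNRD1 ones, the highest mean was 319 reads in wild-type nuclei and 624 in AGO1/2 nuclei, beside 6158 and 20525 matched reads.

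TXNRD1 and SRXN1 act on the thioredoxin system, TXNRD1 by reducing thioredoxin and SRXN1 by repairing over-oxidised peroxiredoxins. Nuclear TXNRD1 was at 221, 217 and 315 CPM in wild type and rose to 467, 532 and 375 in AGO1/2 (log2 0.87 ± 0.13, adjusted p = 3.65e-05) and to 365, 361 and 393 in AGO1/2/3 (0.57 ± 0.13, adjusted p = 0.00177). Wild-type passage 29 stood above the other wild-type libraries, yet no AGO1/2 or AGO1/2/3 library overlapped it. The AGO1/2/3 call was lost on the TPM scale (0.14 with either pseudocount). Cytoplasmic TXNRD1 was not called in any line, with 333 to 518 CPM in wild type and 325 to 562 in the knockout lines.

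SRXN1 moved less and in both directions. Nuclear SRXN1 was at 41.9, 38.8 and 55.9 CPM in wild type and 58.6, 64.1 and 50.4 in AGO1/2, where 2 of 3 libraries lay above wild type (log2 0.34 ± 0.11, adjusted p = 0.0138). That call was lost without AGO1/2 passage 10 (0.27), with a mean count of at least 50 (0.24), with only the 2 groups fitted (0.36) and with protein-coding transcripts only (0.05). SRXN1 has 1 quantified transcript, a protein-coding one, so the last setting removed none of its reads. Its value moved because that setting rescales each library, for every gene. Cytoplasmic SRXN1 was at 99.2, 88.5 and 127 CPM in wild type and fell to 81.1, 71.0 and 73.1 in AGO1 (-0.48 ± 0.12, adjusted p = 0.0138) and to 82.0, 80.4 and 86.6 in AGO1/2/3 (-0.34 ± 0.12, adjusted p = 0.0312). The AGO1 call was lost without AGO1 passage 7 (-0.44). The AGO1/2/3 call was lost without AGO1/2/3 passage 11 (-0.31), 12 (-0.31) or 14 (-0.37) and without wild-type passage 29 (-0.18), and both calls were lost with only the 2 groups fitted (-0.48 and -0.35).

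NQO1, the member with the highest TPM, separated the single from the combined knockouts. Nuclear NQO1 was at 204, 208 and 243 CPM in wild type, 141, 156 and 144 in AGO1 and 152, 175 and 176 in AGO2, against 363, 398 and 443 in AGO1/2 and 306, 331 and 420 in AGO1/2/3. All libraries of the single knockouts lay below and all of the combined knockouts above wild type. NQO1 fell to 0.672 times wild type in AGO1 nuclei (log2 -0.57 ± 0.11, adjusted p = 0.00156) and to 0.767 times in AGO2 nuclei (-0.38 ± 0.11, adjusted p = 0.0132), and rose 1.84-fold in AGO1/2 (0.88 ± 0.11, adjusted p = 5.67e-06) and 1.61-fold in AGO1/2/3 (0.69 ± 0.11, adjusted p = 8.3e-05). The AGO2 call was lost without AGO2 passage 8 (-0.31) or wild-type passage 29 (-0.28), and the other 3 held under each of their 16 alternatives.

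Cytoplasmic NQO1 did not rise in any line. It was at 339, 330 and 370 CPM in wild type, 188, 209 and 217 in AGO1, 210, 218 and 233 in AGO2, 277, 268 and 318 in AGO1/2 and 331, 322 and 308 in AGO1/2/3. The fall was -0.76 ± 0.08 in AGO1 (adjusted p = 2.18e-05), -0.65 ± 0.08 in AGO2 (adjusted p = 6.31e-05) and -0.27 ± 0.08 in AGO1/2 (adjusted p = 0.0101), and AGO1/2/3 was not called. The AGO1 and AGO2 calls held under each of 16 alternatives, and the AGO1/2 call was lost without AGO1/2 passage 9 (-0.23) and with only the 2 groups fitted (-0.27). Transcripts NQO1-202 and NQO1-206 carried most of the signal, with 45.6% and 34.7% of NQO1 TPM in wild-type nuclei and 42.6% and 36.2% in AGO1/2 nuclei.

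AKR1C1 and AKR1B10, aldo-keto reductases that remove reactive carbonyls, were barely present. Nuclear AKR1C1 held 55, 65 and 65 reads in wild type and 32, 35 and 34 in AGO1, or 1.94, 2.72 and 2.92 against 1.04, 1.11 and 1.11 CPM (log2 -1.20 ± 0.24, adjusted p = 0.00157). It was also lower in AGO1/2 nuclei at 1.59, 1.07 and 1.80 CPM (-0.75 ± 0.22, adjusted p = 0.00745) and in AGO1/2/3 nuclei at 1.90, 1.93 and 1.35 (-0.54 ± 0.22, adjusted p = 0.0491). Cytoplasmic AKR1C1 rested on 10, 13 and 12 reads in wild type, against 2, 5 and 6 in AGO1 (-2.15 ± 0.40, adjusted p = 0.00311) and 12, 8 and 10 in the deeper AGO1/2 libraries (-0.94 ± 0.36, adjusted p = 0.0414). Both cytoplasmic calls were lost with protein-coding transcripts only (-1.45 and -0.46) and with length-scaled counts (-1.88 and -1.44). The AGO1 call was also lost on the TPM scale (-0.10 and -0.63 with pseudocounts of 1 and 0.1), and the AGO1/2 call with DESeq2 (-0.95), without the filter on low counts (-0.92) and with unmatched transcripts kept (-0.94). The AGO1/2/3 nuclear call was lost without AGO1/2/3 passage 11 (-0.61), 12 (-0.62) or 14 (-0.38) and without wild-type passage 28 (-0.45) or 29 (-0.39), and the AGO1/2 cytoplasmic call without AGO1/2 passage 10 (-0.84) or 11 (-0.90) and without wild-type passage 27 (-1.01), 28 (-0.88) or 29 (-0.93). The AGO1/2/3 nuclear call was lost as well with DESeq2 (-0.53), without the filter (-0.46), with length-scaled counts (-0.47), protein-coding transcripts only (-0.71), unmatched transcripts kept (-0.54) and only the 2 groups fitted (-0.54), and held under 6 of 17 alternatives. AKR1C1 shares reads with near-identical paralogs, so its own level is uncertain, and summing AKR1C1 to AKR1C4 changed none of its calls. That sum includes AKR1C3, which itself was called lower in 6 of 8 comparisons, so it does not test AKR1C1 alone. AKR1B10 held 1 to 11 reads in nuclear and 4 to 17 in cytoplasmic libraries, and its cytoplasmic test made no call.

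HMOX1, the stress-induced enzyme that opens the heme ring, rose in nuclei and not in cytoplasm. Nuclear HMOX1 was at 9.72, 8.53 and 10.4 CPM in wild type, 13.7, 13.6 and 13.1 in AGO2, 20.5, 19.6 and 16.6 in AGO1/2 and 13.6, 16.6 and 15.6 in AGO1/2/3. These were rises of 0.49 ± 0.10, 0.98 ± 0.10 and 0.67 ± 0.10 on the log2 scale (adjusted p = 0.00154, 6.3e-07 and 4.53e-05), and no library overlapped wild type. The AGO1 nuclei at 11.1, 12.3 and 11.3 CPM also lay above wild type but were not called (adjusted p = 0.0608). The AGO2 call was lost on the TPM scale (0.19 and 0.23 with pseudocounts of 1 and 0.1). In the cytoplasm HMOX1 ran from 15.7 to 17.8 CPM in wild type and 15.0 to 20.7 in the knockout lines, with no call. On the TPM scale it was called lower in AGO1/2 cytoplasm (-0.28 and -0.32).

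OSGIN1 fell in the AGO1 line and rose in the AGO1/2 and AGO1/2/3 lines, in both fractions. Nuclear OSGIN1 was at 7.85, 7.65 and 10.9 CPM in wild type, 5.69, 6.87 and 6.92 in AGO1, 18.4, 17.0 and 15.1 in AGO1/2 and 15.0, 14.9 and 14.5 in AGO1/2/3, with no overlap between any of these lines and wild type. The changes were -0.43 ± 0.13 (adjusted p = 0.0231), 0.94 ± 0.13 (adjusted p = 8.9e-06) and 0.75 ± 0.13 (adjusted p = 0.00011). In the cytoplasm OSGIN1 was at 6.87, 6.26 and 8.76 CPM in wild type and fell to 5.01, 4.98 and 4.46 in AGO1 (-0.60 ± 0.15, adjusted p = 0.0165). It rose to 11.005, 9.87 and 9.28 in AGO1/2 (0.46 ± 0.15, adjusted p = 0.0167) and to 11.7, 12.4 and 9.25 in AGO1/2/3 (0.61 ± 0.15, adjusted p = 0.00414), the sole member called higher in the cytoplasm of both lines. The nuclear AGO1 call was lost without AGO1 passage 6 (-0.34) or wild-type passage 29 (-0.25), the cytoplasmic AGO1 call without AGO1 passage 8 (-0.55) or wild-type passage 29 (-0.45), and the cytoplasmic AGO1/2 call without AGO1/2 passage 9 (0.40) or wild-type passage 27 (0.42) or 28 (0.36). Both AGO1 calls were also lost with only the 2 groups fitted (-0.41 in nuclei and -0.60 in cytoplasm). The cytoplasmic AGO1/2 value was 0.04 and 0.06 on the TPM scale, with no call.

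Nuclear libraries of the knockout lines also differed from wild type in RNAs outside this pathway. The cytoplasmic mRNA GAPDH, a glycolytic enzyme, was higher in the nuclei of AGO1 (log2 0.60), AGO2 (0.60), AGO1/2 (1.11) and AGO1/2/3 (0.91). The nuclear RNA MALAT1 was lower in the same 4 lines (-0.53, -0.49, -1.18 and -0.95 in that order), and NEAT1 was lower in AGO1, AGO1/2 and AGO1/2/3 (-1.16, -1.27 and -0.71). Their part in the nuclear rises of the members was not tested. In the cytoplasm MALAT1 was instead higher in AGO1, AGO2 and AGO1/2 (0.52, 0.60 and 0.46).

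Transcripts annotated as retaining an intron made up less of the nuclear RNA of several members in the knockout lines. This share is taken within a gene's own TPM and does not depend on how libraries are scaled. For NFE2L2 it was 27.5%, 26.3% and 24.8% in wild-type nuclei, 20.7%, 19.8% and 20.8% in AGO1, 17.2%, 18.6% and 18.5% in AGO2, 10.2%, 9.91% and 12.7% in AGO1/2 and 17.5%, 14.4% and 14.1% in AGO1/2/3. For TXNRD1 it was 19.2%, 19.7% and 20.2% in wild type and 6.42%, 5.97% and 8.49% in AGO1/2. No knockout library of either gene reached the wild-type range, and 3 libraries against 3 allow no exact permutation p below 0.1. TXNRD1-206, a 551-base retained-intron transcript, went from 17.7 ± 2.92 TPM in wild-type nuclei to 8.84 ± 0.237 in AGO1/2 nuclei and was at 0.206 ± 0.185 in wild-type cytoplasm.

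The same was seen over many genes. Of 7057 genes with such a transcript and a mean nuclear level of at least 1 TPM, all 3 knockout libraries lay below all 3 wild-type ones for 22.9% in AGO1, 36.7% in AGO2, 65.8% in AGO1/2 and 57.2% in AGO1/2/3. Of the 6 members tested (NFE2L2, GCLC, TXNRD1, NQO1, HMOX1 and OSGIN1), NFE2L2, TXNRD1 and matched GCLC met this in each of the 4 lines, NQO1 in AGO1/2 and AGO1/2/3, and HMOX1 in AGO1/2. OSGIN1 was at 0% in every wild-type nuclear library, so it could not lie lower. NQO1 went from 3.32% ± 0.229 to 0.726% ± 0.152 in AGO1/2 nuclei. In the cytoplasm the share was at most 1.26% on average in every group for NFE2L2, TXNRD1, NQO1, HMOX1 and OSGIN1. Matched GCLC held 418 reads on average in wild-type cytoplasm, where its share was 20.3%, 17.6% and 17.6%. The share was lower in all 3 libraries of AGO1/2 (12.7%, 1.41% and 16.9%) and AGO1/2/3 (4.01%, 14.3% and 1.24%), against 4.56% and 5.52% of genes. It overlapped wild type in AGO1 (20.03%, 19.9% and 3.83%) and AGO2 (28.7%, 16.9% and 17.4%), where 3.93% and 4.22% of genes were lower in all 3 libraries. Counting protein-coding transcripts only, GCLM, TXNRD1, NQO1, HMOX1 and OSGIN1 were still called higher in AGO1/2 nuclei.

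**Figure D3:**
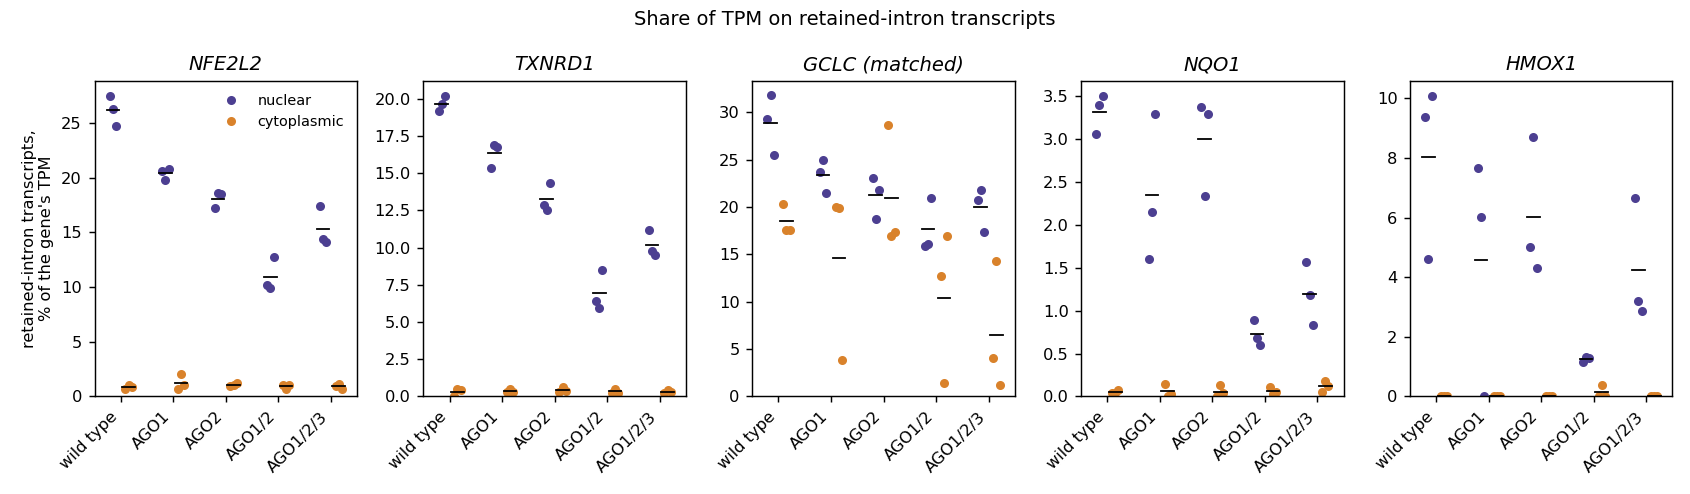
Each panel plots the percent of a gene's TPM on retained-intron transcripts (linear axis from 0, scaled per panel), with 1 point per library and a black bar at the mean of 3. Nuclear shares of NFE2L2 and TXNRD1 are highest in wild type and lowest in AGO1/2, while their cytoplasmic shares stay near 0.

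The nuclear and cytoplasmic effects of a knockout differed for a few members. The difference was tested as an interaction over all 30 libraries, where a positive value means a larger nuclear than cytoplasmic log2 fold change. For NQO1 it was 1.07 ± 0.14 in AGO1/2 (adjusted p = 1.22e-06) and 0.72 ± 0.14 in AGO1/2/3 (adjusted p = 0.0004), and for HMOX1 0.82 ± 0.13 (adjusted p = 3.52e-05) and 0.65 ± 0.14 (adjusted p = 0.00101). These 4 held under each of 22 alternatives. TXNRD1 was called in AGO1/2 (0.50 ± 0.19, adjusted p = 0.0431), a call lost without cytoplasmic AGO1/2 passage 9 (0.53) or 11 (0.40), cytoplasmic wild-type passage 29 (0.31), nuclear AGO1/2 passage 9 (0.48) or 10 (0.37), or nuclear wild-type passage 27 (0.42) or 28 (0.41). It was also lost with DESeq2 (0.40), DESeq2-type size factors (0.40), a mean count of at least 50 (0.38), length-scaled counts (0.32), protein-coding transcripts only (0.29) and unmatched transcripts kept (0.47), and held under 9 of 22 alternatives. Matched GCLC was called with the opposite sign in AGO2 (-0.70 ± 0.20), AGO1/2 (-1.04 ± 0.20) and AGO1/2/3 (-0.79 ± 0.20). The unmatched ENST00000229416, tested as a feature of its own, was called with a positive value in AGO1/2 (0.77) and AGO1/2/3 (0.69). In AGO2 that transcript was not called (0.36). On the TPM scale, with pseudocounts of 1 and 0.1, the GCLC calls in AGO2 (-0.33 and -0.33) and AGO1/2/3 (-0.16 and -0.15) were lost and the AGO1/2 value turned to 0.09 and 0.13. With length-scaled counts all 3 were lost (-0.28, -0.26 and -0.23). The AGO2 call was also lost without cytoplasmic AGO2 passage 8 (-0.53), cytoplasmic wild-type passage 27 (-0.70) or 28 (-0.64), nuclear AGO2 passage 9 (-0.69) or 10 (-0.63), or nuclear wild-type passage 27 (-0.71), 28 (-0.71) or 29 (-0.66). That made 4 of 9 members in AGO1/2, 3 in AGO1/2/3, 1 in AGO2 and 0 in AGO1, against 36.5%, 22.7%, 5.76% and 0.662% of all genes. In AGO1, 1 member (AKR1C1) had an unadjusted p under 0.05, DESeq2 called 0, and limma called 1 or 0 with a pseudocount of 1 or 0.1. With passage within genotype as a replicate block the counts were 7, 6, 5 and 1. The shares of all genes above come from the fit without that block, so these counts cannot be set against them.

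Within wild type, most members were lower in nuclear than in cytoplasmic libraries relative to other genes. The log2 ratio of nucleus to cytoplasm was -0.73 ± 0.06 for NFE2L2, -0.78 ± 0.15 for GCLM, -1.14 ± 0.14 for TXNRD1, -1.65 ± 0.12 for SRXN1, -1.10 ± 0.10 for NQO1 and -1.26 ± 0.10 for HMOX1. AKR1C1 (2.77 ± 0.27) and the matched GCLC transcripts (4.01-fold) were higher in the nucleus, and OSGIN1 was not called. The unmatched ENST00000229416, listed among the GCLC rows and outside the gene sums, was lower in the nucleus (log2 -1.40). The GCLC ratio therefore describes the matched transcripts and not the gene. With length-scaled counts the GCLC call in wild type was lost (log2 0.15) and the GCLC ratio turned to -0.02 in AGO1, -0.12 in AGO2, -0.10 in AGO1/2 and -0.07 in AGO1/2/3. In the main fit of wild type, with GCLC as its matched transcripts, 2 of 9 members were higher and 6 lower, against 39.6% and 37.3% of all genes. In AGO1/2 the ratio was -0.03 ± 0.10 for NQO1, which was not called, -0.44 ± 0.09 for HMOX1 and -1.29 ± 0.11 for SRXN1, with 2 members higher and 4 lower, against 36.9% and 31.6% of genes. The AGO1, AGO2 and AGO1/2/3 lines each had 2 higher and 6 lower, against 40.0% and 34.5%, 39.8% and 33.6%, and 36.1% and 34.1% of genes. On the TPM scale, where the median of all genes moved to between 0.24 and 0.89, the sign turned in several cases, for example for NFE2L2 in wild type (0.11), for HMOX1 (0.53 and 0.59), NFE2L2 (0.40 and 0.41) and TXNRD1 (0.39 and 0.40) in AGO1/2, and for NQO1 in AGO1/2/3 (0.27), so these ratios hold only relative to other genes.

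**Figure D4:**
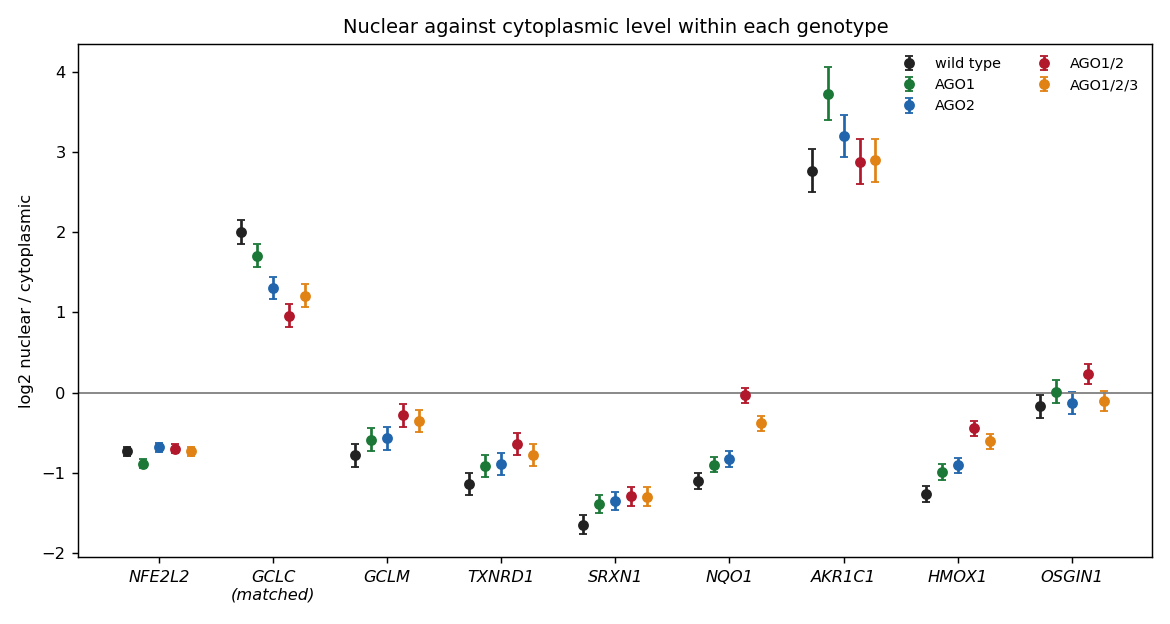
Points give the log2 ratio of nuclear to cytoplasmic level from the fit over all 30 libraries, 1 colour per genotype, with bars of 1 standard error. NQO1 moves from -1.10 in wild type to -0.03 in AGO1/2, while SRXN1 stays at or below -1.29.

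The AGO1/2/3 and AGO1/2 lines, which differ by the AGO3 edit and are separate lines, showed no called difference in any member. In nuclei 0 of 9 were called, against 1.74% of genes higher and 1.74% lower, and 5 (GCLC, GCLM, TXNRD1, SRXN1 and HMOX1) had an unadjusted p under 0.05. DESeq2 called 2 there, and limma on TPM called 4 with a pseudocount of 1 and 3 with 0.1. In cytoplasm 0 of 10 were called, against 2.47% higher and 2.48% lower, with 2 (GCLM and SRXN1) at an unadjusted p under 0.05, 0 by DESeq2, and 0 or 1 by limma with a pseudocount of 1 or 0.1. Nuclear GCLM at 71.5, 81.1 and 57.9 CPM in AGO1/2 lay above the 49.7, 56.6 and 54.0 of AGO1/2/3 (-0.39 ± 0.12, adjusted p = 0.0749).

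Among 13 regulators of NRF2, KEAP1 rose in 7 of 8 comparisons. Nuclear KEAP1 was at 45.5, 43.7 and 37.1 CPM in wild type and 99.9, 106 and 87.8 in AGO1/2, with log2 fold changes of 0.59 in AGO1, 0.76 in AGO2, 1.22 in AGO1/2 and 0.95 in AGO1/2/3 nuclei. In cytoplasm it rose by 0.38, 0.51 and 0.43 in AGO2, AGO1/2 and AGO1/2/3. NFE2L3, a relative of NRF2, rose 1.55 in AGO1/2 and 1.15 in AGO1/2/3 nuclei, and NFE2L1 rose 1.09 and 1.14. BACH2, a repressor that binds the same elements, was at or below 3.37 CPM on average in every group and was called lower in AGO2 and AGO1/2 nuclei and in AGO1 and AGO1/2 cytoplasm. Of the 13, 11 were called higher in AGO1/2 nuclei, against 32.9% of all genes, and 11 in AGO1/2/3 nuclei, against 29.1%. In AGO1 nuclei 2 were, near the 14.3% of all genes.

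The other genes of the pathway came from 8 lists, 1 of them the regulators above and 1 of antioxidant enzymes outside the usual NRF2 targets. The counts over all lists include both, so they are not separate from the counts given for each. Of 60 tested in nuclei, 45 were called higher and 5 lower in AGO1/2 (32.9% and 34.7% of all genes), and 41 and 6 in AGO1/2/3 (29.1% and 29.5%). In AGO2 nuclei 27 were higher and 5 lower (20.2% and 19.9%), and in AGO1 nuclei 18 and 6 (14.3% and 15.6%), where no member was called higher. In the cytoplasm, of 61 tested, 20 were higher and 15 lower in AGO1/2 (23.9% and 25.4%), 17 and 13 in AGO1/2/3 (18.6% and 20.0%), 7 and 5 in AGO2 (7.07% and 9.0%), and 0 and 10 in AGO1 (4.28% and 8.13%). The counts called lower in the cytoplasm of AGO2, AGO1/2 and AGO1/2/3 were near the shares of all genes. The antioxidant enzymes outside the usual targets, such as GPX1, PRDX2 and GPX4, had 10 of 11 higher in AGO1/2 nuclei, against 32.9% of all genes, with a median log2 fold change of 0.52, beside 0.87 for the members and -0.06 for all genes. These directions hold relative to other genes, beside the shifts of GAPDH and MALAT1 given above.

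Several single genes of the lists moved in both fractions. CYP4F11, a cytochrome P450 of fatty acid oxidation, fell in the AGO1 line (log2 -2.41 in nuclei and -2.75 in cytoplasm) and rose in AGO1/2 (1.87 and 1.74) and AGO1/2/3 (1.90 and 1.79), the same signs as OSGIN1 in those 6 comparisons. ABCB6, a porphyrin transporter, fell in AGO1 (-0.53 and -0.80) and rose in the other 3 lines in both fractions (0.55 to 0.83). PRDX6, a peroxiredoxin, rose in AGO1/2 (1.77 and 0.91) and AGO1/2/3 (1.41 and 0.79). The ferritin chains FTL and FTH1 rose in the cytoplasm of AGO1/2 (1.27 and 1.10). PTGR1, a reductase of reactive lipid products, fell in AGO2 (-0.95 in nuclei and -1.21 in cytoplasm), AGO1/2 and AGO1/2/3, and the drug transporter ABCC3 fell in both fractions of AGO1 and AGO2 and was not called in the combined knockouts. AKR1C3 fell in 6 of 8 comparisons but stood at or below 0.898 CPM on average in every group.

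**Figure D5:**
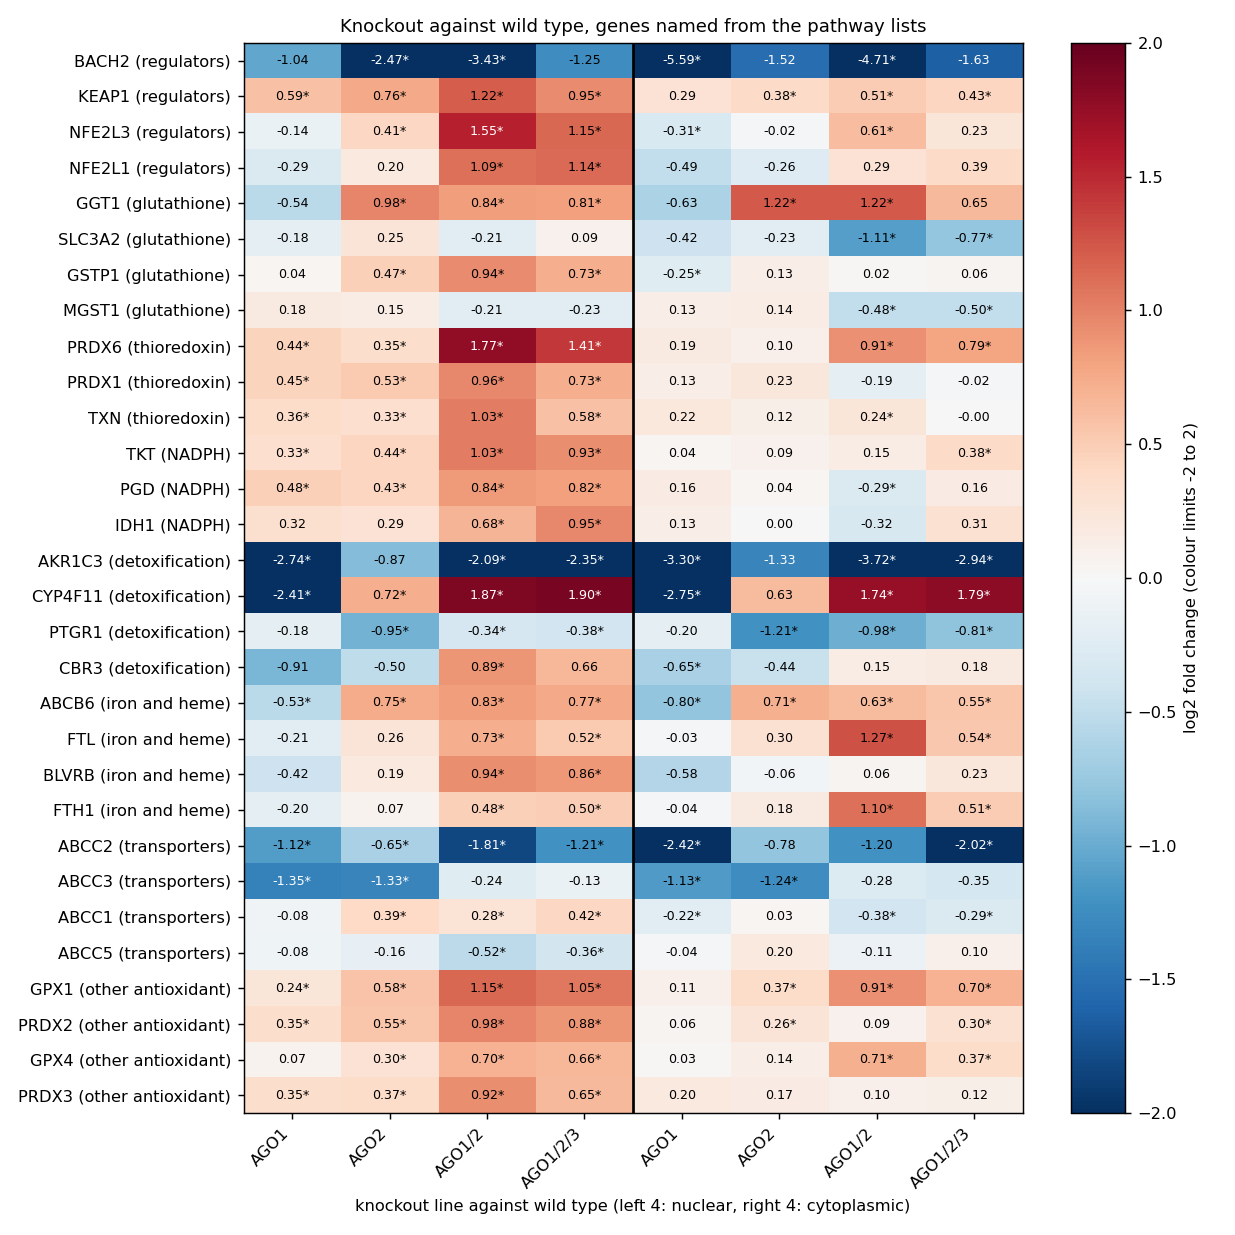
Colour and number give log2 fold changes against wild type for genes named from the pathway lists (rows, list in brackets) in 4 nuclear and 4 cytoplasmic comparisons, with an asterisk where edgeR's adjusted p was at most 0.05 and colours ending at -2 and 2. KEAP1 is called higher in 7 of 8 columns, and CYP4F11 is lower in the AGO1 columns and higher in the AGO1/2 and AGO1/2/3 columns.

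Across the 30 libraries, with log2 CPM centred within each fraction, the genes most like NQO1 included NDUFC2 (Pearson r = 0.927), SERPINB9 (0.921), ATP2B4 (0.916) and ADD3 (0.916). Those most like NFE2L2 were RHEBP1 (0.704), NEK6 (0.703), SPIN1 (0.699), GGH (0.698) and HIPK2 (0.693). Among the members TXNRD1 and OSGIN1 (0.822), TXNRD1 and GCLM (0.803) and NQO1 and OSGIN1 (0.796) were closest, and NFE2L2 was closest to TXNRD1 (0.624). Matched GCLC ran against several members, with -0.708 for GCLM and -0.677 for TXNRD1. The 30 points are 3 libraries of 10 groups and share line and depth, so these values are descriptions.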

How the data were processed

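RNA-seq of nuclear and cytoplasmic fractions from 5 genotypes was used (30 libraries), and 8 further samples of AGO2 crosslinking were not used here. The authors aligned reads (STAR) and quantified transcripts with Salmon on hg38, and per the labels these tools were STAR 2.5.3a and Salmon 0.11.0. The deposited tables hold estimated counts per transcript, and the deposited TPM values scale those by effective length within a library. Of 200401 transcripts, 196040 matched GENCODE 44 by identifier and were summed per gene, and 4361 were left out. Sums were rounded and tested in edgeR 4.0.16 (TMM, filterByExpr at a minimum count of 10, glmQLFTest), with 15 libraries per fraction for 18919 nuclear and 17605 cytoplasmic genes, and all 30 for 20104 genes in comparisons between fractions. Benjamini-Hochberg p-values ran over all genes tested. Unequal depth (the wild-type libraries were the shallowest) limits precision. With 1 edited line per knockout, clone-to-clone variation was not sampled and enters no standard error or p-value given here. Scripts were tested on simulated data. Alternatives used DESeq2 1.42.0, limma 3.58.1 on log2 TPM and other settings given below. Replicate numbers are passages. In wild type, same-numbered nuclear and cytoplasmic libraries deviated together (r = 0.156, 0.148 and 0.402), in the knockout lines not in every pair. The members, gene lists and tests were chosen with earlier results of these data known. Named genes were all members, KEAP1, and up to 4 genes per list with the largest mean absolute log2 fold change among those called at least once, and some genes that met the naming rules are not reported here. TRIM16L has 2 gene identifiers and was not tested, nor were GPX2, GSTM3, AKR1C2, AKR1B15, CBR1, ADH7 and UGT1A6.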

Additional observations from a re-analysis of the deposited data

Results flagged for a closer look

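The difference between the nuclear and the cytoplasmic effect of a knockout passed its test for 4 members. It did so for 4 of 9 in AGO1/2, 3 in AGO1/2/3 and 1 in AGO2. The shares of all genes were 36.5%, 22.7% and 5.76% in that order. A positive value means a larger nuclear log2 fold change. NQO1 differed by 1.07 in AGO1/2 and 0.72 in AGO1/2/3, HMOX1 by 0.82 and 0.65, and TXNRD1 by 0.50 in AGO1/2. The matched GCLC transcripts differed by -0.70 in AGO2, -1.04 in AGO1/2 and -0.79 in AGO1/2/3. The TXNRD1 difference held under 9 of 22 alternatives and that of GCLC in AGO2 under 11, and all 3 GCLC differences were lost with length-scaled counts (-0.28, -0.26 and -0.23).

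The transcript without a GENCODE 44 match, ENST00000229416, lies outside the gene sums and was higher in AGO1/2 nuclei (log2 0.52, adjusted p = 0.00115) and AGO1/2/3 nuclei (0.35, adjusted p = 0.0180), where the matched GCLC transcripts were lower. It was lower in the cytoplasm of AGO1 (-0.35), AGO1/2 (-0.35) and AGO1/2/3 (-0.37). Its difference between fractions was 0.77 in AGO1/2 and 0.69 in AGO1/2/3, and its wild-type log2 ratio of nucleus to cytoplasm was -1.40. These signs are opposite to those of the matched GCLC transcripts. The unmatched transcript was tested as a feature of its own, an alternative chosen after seeing the data.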

How the results depend on the processing

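Of 36 calls of members against wild type, 19 kept direction and call under each alternative run, as did 4 of 8 differences between fractions and 19 of 38 calls of nucleus against cytoplasm. Results with no main call, and no called reversal, were run under the same alternatives. There 112 outcomes gained a call, 170 turned direction without a call and 1254 stayed the same, and these are not listed here. No paired analysis was possible because the knockout and wild-type groups share no passage numbers, so only comparisons between fractions had a replicate block (passage within genotype). Under that block, members with a difference between fractions numbered 7 in AGO1/2, 6 in AGO1/2/3, 5 in AGO2 and 1 in AGO1 (4, 3, 1 and 0 without it). The shares of all genes called under the block and the other alternatives are not given here. Counts of members under them therefore do not show a change particular to the members. In nuclei, calls between AGO1/2/3 and AGO1/2 went from 0 to 2 with DESeq2, 1 with no filter and 4 or 3 with limma on TPM (pseudocount 1 or 0.1), AGO2 calls from 3 to 5 with no filter, and AGO1 calls from 5 to 3 with only the groups compared. In cytoplasm, limma with either pseudocount gave 3 for AGO2 (1) and 6 for AGO1/2/3 (3), and 1 for AGO1/2/3 against AGO1/2 with 0.1 (0). AGO1/2 fell from 5 to 3 with protein-coding transcripts and AGO1 from 4 to 2 with only the groups compared. Differences between fractions were 7 in AGO1/2 and 6 in AGO1/2/3 with no filter, 7 and 7 in AGO1/2 with limma, 0 in AGO2 with length-scaled counts or limma, and 1 in AGO1 with limma (pseudocount 1). Nucleus against cytoplasm in AGO1/2/3 fell from 8 to 5 and 5 with limma.

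Leaving out 1 library gave 4 to 6 calls for nuclear AGO1, 2 to 4 for AGO2, 7 to 9 for AGO1/2, 6 to 7 for AGO1/2/3 and 0 to 3 for AGO1/2/3 against AGO1/2. In cytoplasm it gave 3 to 4, 1 to 1, 2 to 5, 1 to 3 and 0 to 2. Differences between fractions ranged from 0 to 1 in AGO2, 3 to 6 in AGO1/2 and 3 to 5 in AGO1/2/3, and nucleus against cytoplasm from 8 to 9 in AGO1, 6 to 7 in AGO1/2 and 7 to 8 in AGO1/2/3.

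Among results called in the main fit, or called with the turned sign under an alternative, directions turned as follows. The cause was not tested. Nuclear NFE2L2 in AGO1/2/3 was -0.0074 with a mean count of at least 50, -0.00072 with length-scaled counts, -0.29 and -0.30 with limma (pseudocounts 1 and 0.1) and -0.070 with protein-coding transcripts. Cytoplasmic HMOX1 in AGO1/2 was -0.28 and -0.32 with limma. The difference between fractions was -0.39 and -0.62 for AKR1C1 in AGO1, and 0.092 and 0.13 for GCLC in AGO1/2. For nucleus against cytoplasm, limma gave NFE2L2 0.11 and 0.11 in wild type, 0.044 and 0.046 in AGO2, 0.40 and 0.41 in AGO1/2 and 0.070 and 0.071 in AGO1/2/3. It gave GCLM 0.57 and 0.61 in AGO1/2 and 0.21 and 0.23 in AGO1/2/3, HMOX1 0.53 and 0.59, then 0.091 and 0.10, TXNRD1 0.39 and 0.40 in AGO1/2, and NQO1 0.9996 and 1.004, then 0.27 and 0.27. OSGIN1 was 0.61 and 0.75 in wild type, 0.63 and 0.80 in AGO2 and 0.75 and 0.87 in AGO1/2/3 with limma, 0.061, 0.042 and 0.053 with a mean count of at least 50, 0.12, 0.23 and 0.17 with length-scaled counts, and 0.080 in AGO1/2/3 with protein-coding transcripts. NQO1 in AGO1/2 was 0.085 with a mean count of at least 50, 0.15 with protein-coding transcripts and from -0.11 to 0.049 with 1 library left out (0.049 without cytoplasmic AGO1/2 passage 11). GCLC with length-scaled counts was -0.022 in AGO1, -0.12 in AGO2, -0.10 in AGO1/2 and -0.073 in AGO1/2/3.

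On the TPM scale the median of all genes moved to between -0.36 and -0.070 (log2) in comparisons with wild type. TPM keeps no depth and each library sums to the same total. AKR1C1 and AKR1B10 are limited by their few reads.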
